A study of Mus musculus with 12 samples.

Results

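Transcripts of the mitochondrial respiratory chain were followed in hypothalamic tissue from 12 pups of the mouse, 6 of them controls and 6 subjected to modified maternal separation (MMS). Members were chosen by gene symbol. They bore names of subunits of NADH dehydrogenase (complex I), succinate dehydrogenase (complex II) or the cytochrome bc1 complex (complex III). Others bore names of cytochrome c oxidase (complex IV) or ATP synthase (complex V), or were Cyc1, Cycs or the mRNAs of the mitochondrial genome. The symbols matched 102 of the 43280 gene rows, and 97 of these had at least 100 counts summed over the libraries. Of the 97, 84 were nuclear genes and 13 were mitochondrial (mt-) genes, and all of them passed the count filter and were among the 13104 genes tested. The rows below the limit were Atp5l-ps1 with 89 counts, Cox4i2 with 53, Cox7b2 with 37, Cox8b with 12 and Cox8c with 3, and the kept row with the fewest counts was Atp5l-ps2 with 137. The symbols miss 4 genes of the chain that go by other names, Ndufab1, Usmg5, 2010107E04Rik and Atpif1, which were examined as a separate list.

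All pups were males of the C57/Bl6 strain, killed on postnatal day 6 just after the last session. The MMS procedure combined separation from the dam with repeated handling of the pup. The males of a litter were shared out at random between control and MMS, but which library came from which litter is not given, so the p-values measure the spread between single pups and take no account of litter. Levels are given in CPM, the count of a gene relative to the scaled total of its library, and fold changes are MMS over control on the log2 scale with their standard error (SE). Reads of a 3' kit come from the end next to the poly(A) tail, so CPM was not divided by transcript length when levels of genes were compared.

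The respiratory chain passes electrons from NADH and succinate through complexes I to IV to oxygen and stores the energy as a proton gradient across the inner mitochondrial membrane, which ATP synthase uses to make ATP. Its complexes, other than complex II, are built from subunits of both genomes: the core of the membrane parts is encoded by mitochondrial DNA, and all other subunits are imported from the cytosol. Neurons rely on this pathway for most of their ATP, and nuclear respiratory factor 1 (NRF1) and the ETS family factor GABP are known to act on the promoters of many of the nuclear genes.

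Promoter sequences, which the choice by symbol did not use, were compared between the nuclear members and all genes with a promoter window, as a description with no test. RefSeq promoter windows of equal length (build GRCm38.p6, the same assembly as mm10) were found for 68 of the 84 nuclear members and were searched on both strands for the letters GCATGCGC, an NRF1-type motif, and CCGGAAG, an ETS-type motif, neither of which contains the other. The NRF1-type letters were present for 11 members (16.2%), against 3.05% of all 27025 genes with a window, whether detected here or not. The members had to have at least 100 counts, so membership and expression are not separated in this comparison. The ETS-type letters were present for 16 members (23.5%), against 9.93% of all genes. Both were present for 5 members (7.35%), against 0.618% of all genes, and these were Atp5k, Atp5l, Cox6a1, Sdhb and Uqcr11. Most members thus held neither run of letters, and among the 31 complex I members with a window 3 held the NRF1-type letters, 4 (12.9%) the ETS-type letters and 0 both. The windows of the members were also richer in G and C, with a median of 58.0% against 52.7%. The stretches from 180 bases before to 30 bases after the start site are shown for 4 of these genes, 1 each from complexes II, III, IV and V, and for the cytochrome c gene Cycs, which holds only the NRF1-type letters. Capitals mark the matches. They lie at chr4:140961091-140961300, plus strand for Sdhb, chr10:80406792-80407001, minus strand for Uqcr11, chr6:50566540-50566749, minus strand for Cycs, chr5:115348929-115349138, minus strand for Cox6a1 and chr5:108434370-108434579, minus strand for Atp5k. In Cox6a1 and Atp5k the NRF1-type letters read on both strands of 1 longer run.
Sdhb: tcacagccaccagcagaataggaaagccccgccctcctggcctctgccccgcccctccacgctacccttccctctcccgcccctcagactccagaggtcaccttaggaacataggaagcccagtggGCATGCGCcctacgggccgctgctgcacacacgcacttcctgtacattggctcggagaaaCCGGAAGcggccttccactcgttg
Uqcr11: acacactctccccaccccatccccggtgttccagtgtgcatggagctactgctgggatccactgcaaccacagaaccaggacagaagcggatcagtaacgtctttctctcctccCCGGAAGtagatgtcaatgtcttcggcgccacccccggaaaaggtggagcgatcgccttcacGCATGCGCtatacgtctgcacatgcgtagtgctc
Cycs: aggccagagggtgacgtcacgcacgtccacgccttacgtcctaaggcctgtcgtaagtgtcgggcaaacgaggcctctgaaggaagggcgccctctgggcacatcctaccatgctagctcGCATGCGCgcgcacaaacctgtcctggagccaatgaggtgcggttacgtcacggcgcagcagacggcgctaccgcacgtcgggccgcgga
Cox6a1: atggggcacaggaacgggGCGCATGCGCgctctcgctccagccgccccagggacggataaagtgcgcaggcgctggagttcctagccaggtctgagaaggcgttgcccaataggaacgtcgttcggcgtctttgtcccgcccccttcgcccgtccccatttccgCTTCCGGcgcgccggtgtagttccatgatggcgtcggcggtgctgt
Atp5k: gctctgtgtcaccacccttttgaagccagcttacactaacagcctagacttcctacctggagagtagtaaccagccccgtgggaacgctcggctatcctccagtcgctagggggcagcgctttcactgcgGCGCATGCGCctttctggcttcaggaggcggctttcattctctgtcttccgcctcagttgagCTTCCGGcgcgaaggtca
A match is a description of the sequence, and binding was not measured. Between control and MMS the log2 fold change was -0.08 for Sdhb, 0.02 for Uqcr11, 0.36 for Cycs, 0.10 for Cox6a1, -0.13 for Atp5k and 0.10 for Atp5l. In the fit without MMS 2 and MMS 4, which differed from the other libraries in many genes, these became -0.03, -0.09, 0.38, -0.02, -0.06 and 0.23.

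Control libraries held 3765759 to 6560620 counts and MMS libraries 3218777 to 5344080. The libraries MMS 2 and MMS 4 were unlike the remaining 10: they were jointly the highest for 14.6% of all genes tested and jointly the lowest for 15.1%. They also held more mitochondrial tRNA counts (0.160% and 0.164% of the library, against 0.056% to 0.095% elsewhere) and lower levels of 5 ependymal markers (0.001% and 0.002%, against 0.004% to 0.011%). The summed level of 5 neuron markers was lower there (0.498% and 0.503%, against 0.537% to 0.664%), but its members differed in direction: Tubb3 was at 1280.3 and 1307 CPM, against 2069 to 3461 CPM elsewhere, and Snap25 was at 407 and 464 CPM, against 292 to 426 CPM. The summed level of 5 astrocyte markers was higher (0.125% and 0.124%, against 0.083% to 0.111%), with Slc1a3 at 683 and 652 CPM, against 399 to 522 CPM elsewhere, and Gfap at 42.4 and 42.6 CPM, against 69.2 to 161 CPM. All 9 hypothalamic markers were detected and passed the filter, as did all 5 neuron markers. Choroid plexus markers made up 0.178% of Control 3 and at most 0.004% of every other library. Striated muscle markers, relevant to the muscle isoforms of complex IV, made up at most 0.004% of any library. The part of cell composition, tissue dissection or RNA quality in the results was not tested, and in bulk tissue fewer cells of a type and less RNA per cell cannot be told apart. Values without MMS 2 and MMS 4 are given beside the main results.

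No respiratory chain gene passed the threshold. With edgeR's quasi-likelihood test and Benjamini-Hochberg adjustment over all genes, 0 of 97 members had an adjusted p under 0.05 (0% of all genes), and the smallest adjusted p of a member was 0.543. DESeq2 and limma-voom likewise placed 0 members past the threshold. At an unadjusted p under 0.05, 8 of 84 nuclear members (9.52%) and 2 of 13 mt- members were found, against 9.08% of all genes, a share near that of the nuclear members. Of these nuclear genes 7 were higher in MMS (8.33%, against 4.68% of all genes) and 1 was lower (1.19%, against 4.4% of all genes). No member separated the groups without overlap, which 0.13% of all genes did towards higher and 0.259% towards lower levels in MMS.

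As a fraction of each library, the 84 nuclear mRNAs together made up 1.89% ± 0.035 of counts in controls (SD, n = 6), with single libraries between 1.84% and 1.94%. In the MMS group the fraction was 2.02% ± 0.204 (SD, n = 6). That mean came from MMS 2 at 2.22% and MMS 4 at 2.34%, while the other 4 MMS libraries lay between 1.87% and 1.91%, inside the control range, with a mean of 1.89% ± 0.016. The 13 mt- mRNAs together made up 2.85% ± 0.148 in controls and 3.13% ± 0.486 in the MMS group (SD, n = 6 each). Their order over the libraries was different: MMS 3 was highest at 3.88%, then MMS 1 at 3.30%, MMS 2 at 3.28% and MMS 4 at 3.13%. These lay above the highest control at 3.03%, whereas MMS 6 at 2.69% lay within the control range and MMS 5 at 2.52% lay below it. All these shares are of unscaled totals, unlike CPM. The scaling factors for CPM were 1.064 in MMS 2 and 1.059 in MMS 4, and 0.968 to 1.017 in the other libraries. On the scaled basis the shares of MMS 2 and MMS 4 are thus lower, and MMS 4 does not lie above every control for the mt- mRNAs. The 95% Wilson interval of a library's share reached at most 0.015 percentage points to each side for the nuclear and 0.021 for the mt- mRNAs. These half-widths were below the SD of either group, and for the nuclear mRNAs close to the SD of the other 4 MMS libraries. A 95% half-width is larger than the standard error of counting, so it is not the same measure as an SD. Such intervals cover counting error only, since reads without molecular identifiers are not independent molecules.

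**Figure D1:**
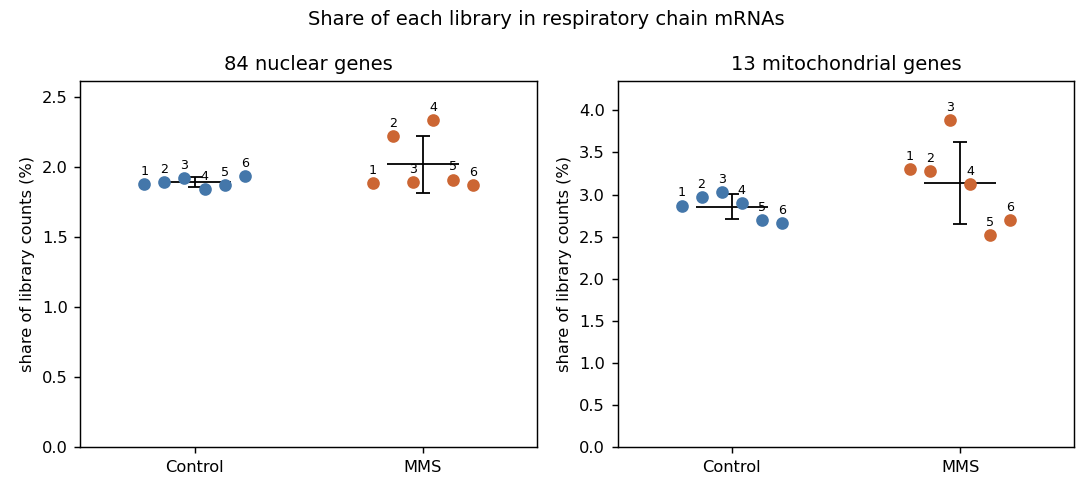
Share of each library's counts, in percent, taken by the 84 nuclear (left) and the 13 mitochondrial (right) respiratory chain genes. Each numbered point is a library, horizontal lines are group means and bars are SD (n = 6 per group). For the nuclear genes MMS 2 (2.22%) and MMS 4 (2.34%) lie above all other libraries, and for the mitochondrial genes MMS 3 (3.88%) is highest.

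The nuclear fold changes leaned to the positive side with all libraries and were centred near zero without those 2. With all libraries 60 of 84 nuclear members (71.4%) had a higher mean in MMS at any p, against 50.1% of all genes, and the median log2 fold change was 0.09 against 0.0009 over all genes. Without MMS 2 and MMS 4 the count was 44 of 84 (52.4%, against 50.1% of all genes) and the median was 0.005. MMS 2 and MMS 4 were jointly the highest libraries for 34 of the 84 nuclear members (40.5%, against 14.6% of all genes). They were jointly the lowest for 7 (8.33%, against 15.1% of all genes). The members share the same libraries, so these counts are not independent observations. Without MMS 2 and MMS 4, an unadjusted p under 0.05 was found for 4 nuclear members (4.76%) and 1 mt- member, against 5.03% of all genes. Of the nuclear ones 3 were higher in MMS, Atp5g2, Cox8a and Cycs (2.41% of all genes), and 1 was lower, Ndufb7 (2.62% of all genes), and 0 members passed after adjustment (0.0373% of all genes).

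The confidence intervals set bounds on the differences, which were wide next to the median fold changes of 0.09 for nuclear and 0.16 for mt- members. The 95% confidence interval of the fold change lay within 0.5 log2 units on either side of zero for 65 of 84 nuclear members (77.4%, against 45.02% of all genes). It lay within 1 log2 unit for 82 (97.6%, against 89.3% of all genes), the exceptions being the scarce Atp5l-ps2 and Ndufa4l2. For the mt- members it lay within 0.5 for 8 of 13 and within 1 for all 13. Without MMS 2 and MMS 4 it lay within 0.5 for 75 nuclear (89.3%) and 11 mt- members, against 51.8% of all genes. The members were among the less variable genes: the median biological coefficient of variation between pups was 15.2% for the nuclear and 16.5% for the mt- members against 19.2% for all genes, at median levels of 188, 573 and 25.5 CPM. For 64 of the 84 nuclear members (76.2%) and 12 of the 13 mt- members the coefficient was below the trend fitted for genes of the same level, against 64.4% of all genes.

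**Figure D2:**
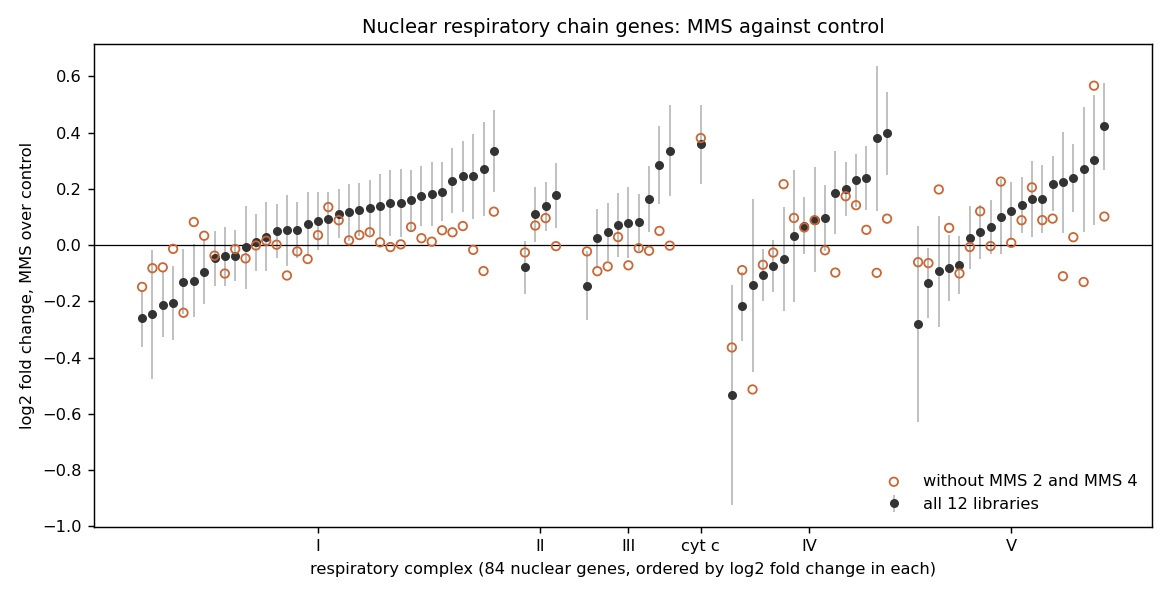
Log2 fold change, MMS over control, of the 84 nuclear members grouped by complex and ordered within each. Filled points with bars are estimates from all 12 libraries with their SE, and open circles are estimates without MMS 2 and MMS 4, whose median falls from 0.09 to 0.005.

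Complex I, which takes electrons from NADH, had 35 nuclear members, 24 of them with a higher mean in MMS, and a median log2 fold change of 0.09 (0.003 without MMS 2 and MMS 4). The 7 nuclear core subunits carry the flavin and iron-sulphur clusters, and 6 of them had a higher mean in MMS, with a median of 0.23 (0.05 without MMS 2 and MMS 4). The 28 accessory subunits, which stabilise the complex, had a median of 0.05 (0.00007 without those libraries). Relative to the control mean the median of the core subunits was 0.44 log2 units higher in MMS 2 and 0.57 higher in MMS 4, and between -0.06 and 0.12 in every other library. Ndufs7, a core subunit next to the quinone site (chr10:80249121-80256794, plus strand), had 69.3, 79.3 and 95.9 CPM as lowest, median and highest value in controls and 71.2, 99.2 and 146 CPM in the MMS group. MMS 4 was highest at 146 CPM, MMS 2 and MMS 3 also lay above all controls, and the other 3 lay within the control range. Its log2 fold change was 0.33 (SE 0.15, adjusted p = 0.543), or 0.12 without MMS 2 and MMS 4 (SE 0.12).

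The accessory subunit Ndufa2, a small protein of the matrix arm, was the only nuclear member with an unadjusted p under 0.05 and a lower mean in MMS. Its lowest, median and highest values were 328, 361 and 366 CPM in controls and 229, 303 and 345 CPM in the MMS group. Of the MMS libraries 5 lay below every control and MMS 1 lay within the control range, with MMS 2 lowest at 229 CPM. The log2 fold change was -0.26 (SE 0.10, adjusted p = 0.543) and -0.15 without MMS 2 and MMS 4 (SE 0.09). Ndufa2 overlaps exons of Tmco6 on the opposite strand, and since the handling of strand in counting is not given, reads of the pair cannot be told apart. Within complex I, Ndufa5 and Ndufb3, further accessory subunits, came next by p among those with a lower mean, at -0.21 (SE 0.12, adjusted p = 0.573) and -0.21 (SE 0.13, adjusted p = 0.617). Without MMS 2 and MMS 4 the values were -0.08 and -0.01. The most abundant nuclear mRNA of complex I was Ndufb8, an accessory subunit of the membrane arm, at 340.1, 371.4 and 390.8 CPM in controls and 347, 392 and 477 CPM in the MMS group (0.13, SE 0.09, adjusted p = 0.665, and 0.04 without MMS 2 and MMS 4).

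Complex II, the succinate dehydrogenase shared with the citric acid cycle, is the only complex without a mitochondrially encoded subunit. Sdhb, its iron-sulphur subunit and its most abundant mRNA, had 368, 397 and 456 CPM in controls and 327, 387 and 434 CPM in the MMS group, and the groups overlapped (-0.08, SE 0.09, adjusted p = 0.793, and -0.03 without MMS 2 and MMS 4). Sdha, the flavoprotein that oxidises succinate, had 193, 211 and 228 CPM in controls and 209, 232 and 254 CPM in the MMS group. Here 4 MMS libraries lay above every control, and the fold change was 0.14 (SE 0.09, adjusted p = 0.614), or 0.10 without those 2 libraries. The membrane anchors Sdhc and Sdhd had fold changes of 0.18 (SE 0.12, adjusted p = 0.621) and 0.11 (SE 0.10, adjusted p = 0.716, and 0.07 without them). Sdhc was at 185 and 183 CPM in MMS 2 and MMS 4 and at 111 to 139 CPM in the other 10 libraries, and its fold change without those 2 was -0.004.

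Complex III passes electrons from ubiquinol to cytochrome c. Of its 9 nuclear members 8 had a higher mean in MMS with all libraries and 2 without MMS 2 and MMS 4, and the median moved from 0.08 to -0.02. The nuclear catalytic subunits showed the same dependence. Cyc1, the haem protein cytochrome c1, had 127, 129 and 153 CPM in controls, and 251 and 232 CPM in MMS 2 and MMS 4. The other 4 MMS libraries lay between 124 and 149 CPM, and the fold change of 0.34 (SE 0.16, adjusted p = 0.552) was -0.002 without the 2 high libraries. Uqcrfs1, the Rieske iron-sulphur protein, was at 204 and 224 CPM in those libraries and at 118 to 159 CPM elsewhere (0.29, SE 0.14, adjusted p = 0.551, and 0.05 without them). Uqcrh, the hinge protein and the most abundant nuclear mRNA of the complex, had a fold change of -0.14 (SE 0.12, adjusted p = 0.708), or -0.02 without them.

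Cytochrome c itself behaved differently. Cycs (chr6:50562563-50566538, minus strand), the somatic form that carries electrons from complex III to complex IV, had 25.9, 27.3 and 30.7 CPM in controls and 28.1, 34.6 and 46.7 CPM in the MMS group. The highest value was in MMS 6, followed by MMS 3 at 41.5, MMS 2 at 37.3 and MMS 4 at 31.9 CPM, all above the highest control, while MMS 1 and MMS 5 lay within the control range. The log2 fold change was 0.36 (SE 0.14, adjusted p = 0.543) with all libraries and 0.38 (SE 0.15, adjusted p = 0.961) without MMS 2 and MMS 4. At a mean of 31.8 CPM its counted level was far below the medians of the complexes it links. How reads with several matches were counted is not given, and whether this lowered the level was not tested.

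Complex IV reduces oxygen to water. Its 16 nuclear members had a median log2 fold change of 0.08 (0.02 without MMS 2 and MMS 4). Cox5a (chr9:57521274-57532426, plus strand), a subunit on the matrix side of the enzyme, had 264, 288 and 308 CPM in controls. MMS 2 and MMS 4 were at 496 and 545 CPM and the other 4 MMS libraries at 280.5 to 330.1 CPM. The fold change was 0.40 (SE 0.15, adjusted p = 0.543), or 0.09 without the 2 high libraries (SE 0.09). Cox4i1 (chr8:120668222-120674207, plus strand), the regulatory subunit and the most abundant nuclear mRNA of the complex, had 499, 555 and 611 CPM in controls and 558, 648 and 737 CPM in the MMS group. Of the MMS libraries 4 lay above every control, with MMS 2 and MMS 4 highest, and the fold change was 0.23 (SE 0.09, adjusted p = 0.543), or 0.14 without them. Cox7a2 had a fold change of 0.24 (SE 0.11, adjusted p = 0.546) and 0.05 without them. Cox7c, a small subunit of the membrane part, had the lowest p among complex IV members with a lower mean in MMS, at -0.22 (SE 0.12, adjusted p = 0.582) and -0.09 without them. Cox4i1 overlaps Emc8, and Cox5a overlaps Gm26631, each on the opposite strand.

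Cox8a, which contributes a single membrane helix, showed the opposite dependence. It was at 332 and 331 CPM in MMS 2 and MMS 4, below all other libraries, while controls had 489, 563 and 646 CPM and the other 4 MMS libraries 557 to 753 CPM. Its fold change was -0.05 with all libraries (SE 0.18, adjusted p = 0.941) and 0.22 without MMS 2 and MMS 4 (SE 0.10, adjusted p = 0.961). Ndufa4, named for complex I but now placed in complex IV, was at 146 and 197 CPM in MMS 2 and MMS 4 and at 60.4 to 108 CPM elsewhere, and its fold change went from 0.38 (SE 0.26, adjusted p = 0.642) to -0.10 without them.

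Where complex IV has alternative isoforms, the ubiquitous form dominated in this tissue. Counts of Cox4i1 exceeded those of Cox4i2, a form known from lung, 626 times. Cox6a1 exceeded the heart and muscle form Cox6a2 30.04 times, and Cox7a2 exceeded the muscle form Cox7a1 90.6 times. Cox6b1 exceeded the testis form Cox6b2 25.9 times, and Ndufa4 exceeded Ndufa4l2, known as a hypoxia-responsive gene, 37.9 times. Cox8a had 30031 counts in all and the muscle form Cox8b had 12. Cox4i2 and Cox8b were below the 100 count limit and were not tested. The other minor forms did not pass the test, with adjusted p from 0.656 to 0.968: Cox6a2 had a fold change of 0.03 (SE 0.23), Cox6b2 of 0.09 (SE 0.19), Cox7a1 of -0.14 (SE 0.31) and Ndufa4l2 of -0.53 (SE 0.39). These became 0.10, 0.09, -0.51 and -0.36 without MMS 2 and MMS 4. Ndufa4l2 was the only member with an absolute fold change over 0.5, against 6.08% of all genes, and its controls ran from 1.51 to 6.52 CPM and overlapped the MMS values of 1.34 to 3.33 CPM. Cox7a2l, a factor for joining complexes III and IV in supercomplexes, was at 339 CPM, near Cox7a2 at 362 CPM, with a fold change of -0.07 (SE 0.09, adjusted p = 0.806), or -0.03 without MMS 2 and MMS 4.

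Complex V, the ATP synthase, had 19 nuclear members by name, with a median log2 fold change of 0.12 (0.06 without MMS 2 and MMS 4). These included 2 that are named for complex V only and are not its subunits, Atp5s and Atp5sl. They also included 2 pseudogene names, Atp5l-ps2 and Atp5l2-ps. Atp5f1, a peripheral stalk subunit (chr3:105942698-105960099, minus strand), had the smallest p of any member. Controls had 280.3, 313 and 325 CPM, MMS 2 and MMS 4 were at 574 and 580 CPM, and the other 4 MMS libraries lay between 305 and 379 CPM. The fold change was 0.42 (SE 0.15, adjusted p = 0.543), or 0.10 without the 2 high libraries (SE 0.09), and exons of Wdr77 and Gm42890 overlap the gene on the opposite strand. The catalytic F1 head had 5 members with a median of 0.22 (0.008 without those libraries). In it Atp5b, the catalytic beta subunit, was at 769 and 819 CPM in MMS 2 and MMS 4 and at 478 to 591 CPM elsewhere (0.24, SE 0.12, adjusted p = 0.556, and 0.03 without them), and Atp5a1, the alpha subunit, had a fold change of 0.22 (SE 0.10, adjusted p = 0.543) and 0.09 without them.

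The c ring of ATP synthase, through which protons pass, is made of identical proteins from 3 nuclear genes that differ in their import sequences. Atp5g3 was the most abundant nuclear member at a mean of 1328 CPM, with 3.41 times the counts of Atp5g1 and 133 times those of Atp5g2. Its MMS values of 1165, 1373 and 1505 CPM overlapped the control values of 1199.8, 1328 and 1412 CPM (0.05, SE 0.10, adjusted p = 0.889, and 0.12 without MMS 2 and MMS 4). Atp5g1 had a fold change of 0.16 (SE 0.12, adjusted p = 0.659), or 0.09 without them. Atp5g2 had 7.10, 9.28 and 10.9 CPM in controls and 6.03, 11.4 and 17.6 CPM in the MMS group. MMS 2 and MMS 4 were its lowest MMS libraries, the other 4 lay above every control, and its fold change was 0.30 (SE 0.23, adjusted p = 0.670) with all libraries and 0.57 (SE 0.21, adjusted p = 0.961) without those 2. How reads with matches in several of these genes were counted is not given. Reads under the pseudogene names Atp5l-ps2 and Atp5l2-ps may come from another copy. Their fold changes were -0.28 (SE 0.35) and -0.09 (SE 0.20), which became -0.06 and 0.20 without MMS 2 and MMS 4.

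Levels of the nuclear members lay in a narrow band. Their median was 188 CPM, and 63 of the 84 lay between 100 and 600 CPM. Atp5g3, Atp5a1 and Cox4i1 were above 600 CPM, and 8 were under 20 CPM: Atp5g2, Atp5l-ps2, Atp5s, Cox6a2, Cox6b2, Cox7a1, Ndufa4l2 and Ndufs5. The medians of complexes I, II and III were 189, 181 and 187 CPM, and those of complexes IV and V were 259 and 262 CPM.

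The mitochondrial genome encodes 13 subunits, and its mRNAs are cut from long transcripts of each strand, so that they share promoters. The mt- members spanned a wide range of CPM. mt-Cytb (chrM:14145-15288, plus strand), the only mitochondrial subunit of complex III, was at a mean of 12367 CPM and held 41.2% of the mt- member counts. mt-Nd4 of complex I was at 8547 CPM and held 28.5%, and together the pair held between 66.7% and 71.4% in every library. At the lower end mt-Nd6, the only light-strand mRNA and one known to lack a poly(A) tail, was at 17.8 CPM, and mt-Nd4l and mt-Atp8 were at 16.04 and 4.15 CPM. The latter share 1 mRNA each with mt-Nd4 and mt-Atp6, with overlapping reading frames, which had 537 and 68.0 times their counts. Reads from the 3' end of such a shared mRNA cannot be told apart by gene.

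Between the groups 11 of the 13 mt- members had a higher mean in MMS, against 50.1% of all genes, with a median log2 fold change of 0.16. Without MMS 2 and MMS 4 all 13 had, again against 50.1% of all genes, with a median of 0.15. The 13 share long transcripts and libraries, so these counts are not independent observations. Without MMS 3 the count was 9 of 13 and the median 0.11, and over the omission of single libraries the median ran up to 0.23, without Control 2. The largest difference was that of mt-Co3, a core subunit of complex IV (chrM:8607-9390, plus strand). It had 325, 369 and 404 CPM in controls and 334, 455 and 568 CPM in the MMS group. MMS 1, 2, 3 and 4 lay above every control and MMS 5 and MMS 6 within the control range. The fold change was 0.31 (SE 0.12, adjusted p = 0.543), or 0.20 without MMS 2 and MMS 4 (SE 0.12). mt-Nd3, a complex I subunit at the quinone pocket, had 336, 380.1 and 435 CPM in controls and 341, 476 and 585 CPM in the MMS group, with MMS 2, 3 and 4 above every control (0.29, SE 0.12, adjusted p = 0.543, and 0.18 without MMS 2 and MMS 4).

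The fold changes of the most abundant mt- mRNAs ranged from 0.02 to 0.21. mt-Cytb had 11025, 11982 and 12381 CPM in controls and 10456, 12904 and 16374 CPM in the MMS group, with MMS 3 highest and MMS 5 lowest of all libraries (0.14, SE 0.10, adjusted p = 0.654, and also 0.14 without MMS 2 and MMS 4). mt-Nd4 was at 11236 and 10425 CPM in MMS 3 and MMS 1, above the controls of 7691 to 8892 CPM, and the other 4 MMS libraries lay between 7298 and 7809 CPM (0.02, SE 0.11, adjusted p = 0.958, and 0.11 without MMS 2 and MMS 4). mt-Nd1 had a fold change of 0.21 (SE 0.12, adjusted p = 0.584), and 0.26 without MMS 2 and MMS 4, where it was the only mt- member with an unadjusted p under 0.05. Of the other heavy-strand mRNAs, mt-Nd5 had a fold change of 0.19 (SE 0.10, and 0.16 without MMS 2 and MMS 4) and mt-Nd2 of 0.16 (SE 0.12, and 0.17 without). Larger moves were those of mt-Atp6, from 0.20 (SE 0.11) to 0.04, of mt-Co1, from 0.13 (SE 0.09) to 0.05, of mt-Atp8, from 0.25 (SE 0.29) to 0.06, and of mt-Co2, from 0.06 (SE 0.11) to 0.16 without those libraries. Those with a lower mean in MMS were mt-Nd4l (-0.09, SE 0.20) and mt-Nd6 (-0.19, SE 0.24), both of which were lowest in MMS 2 and MMS 4 and turned to 0.15 and 0.09 without them. mt-Co1 and mt-Atp6 were highest in MMS 2 and MMS 4, and mt-Co2 was lowest there. The mitochondrial rRNAs, which are not members, made up 1.66% ± 0.246 of control and 1.61% ± 0.224 of MMS counts (SD, n = 6 each).

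**Figure D3:**
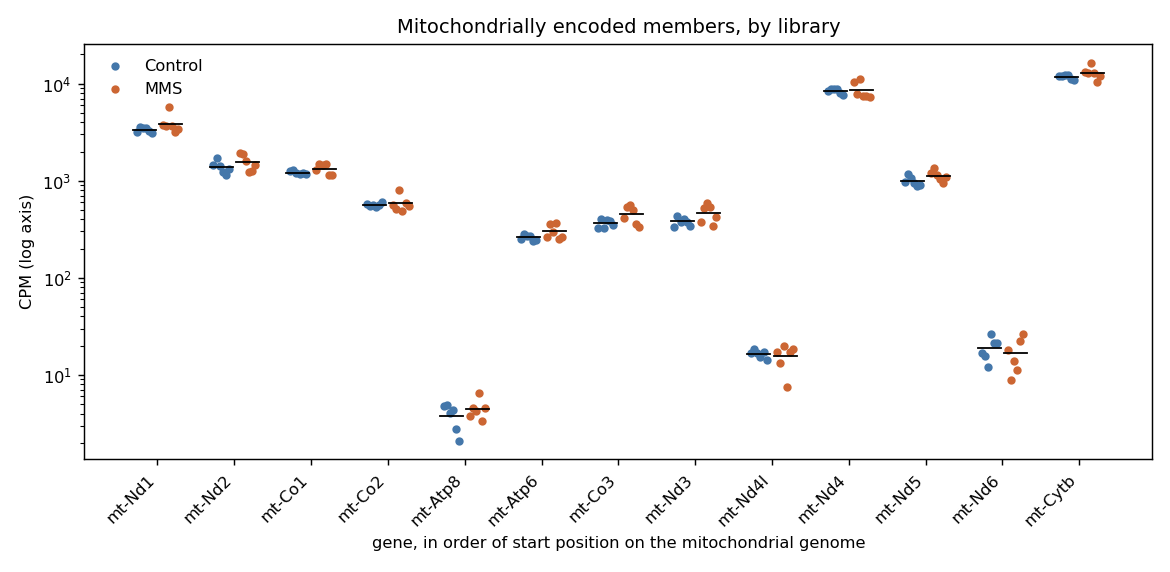
CPM of the 13 mitochondrial genes on a log axis, in order of start position on the mitochondrial genome. Each point is a library, blue for control and orange for MMS, and horizontal lines are group means (n = 6). The genes run from mt-Atp8 at a mean of 4.15 CPM to mt-Cytb at 12367 CPM, and the groups overlap in every gene.

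Among nuclear members the fold change followed transcript length, and this too lay in MMS 2 and MMS 4. Lengths were those of 1 GENCODE M21 transcript per gene, the longest of those marked as principal where there were any. Which transcript was expressed here was not determined. Some lengths may thus be too long, as Atp5g1 had 4715 and Ndufb2 4371 bases, against 731 for Atp5g2 and 723 for Atp5g3. Across the 84 genes, which share the same libraries and are not independent replicates, Spearman's rho of fold change and length was 0.51 with all libraries and 0.19 without MMS 2 and MMS 4. Over the 12518 tested genes with a length it was 0.03 and -0.02, over 76 cytosolic ribosomal protein genes -0.02 and 0.01, and over 76 mitochondrial ribosomal protein genes 0.05 and 0.08. Against transcript GC content rho was -0.14 and 0.03 for the nuclear members. The 28 shortest transcripts, of 312 to 659 bases, had a median log2 fold change of -0.006, with 14 of 28 higher in MMS. The 28 of middle length had a median of 0.05, with 19 higher. The 28 longest, of 1166 to 4715 bases, had a median of 0.16, with 27 higher, which became 0.02 with 18 higher without MMS 2 and MMS 4. The complex I core, nuclear complex III catalytic and F1 subunits described above have median lengths of 1623, 1442 and 1410 bases against 863 bases for all nuclear members, so role and length cannot be told apart among these genes.

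**Figure D4:**
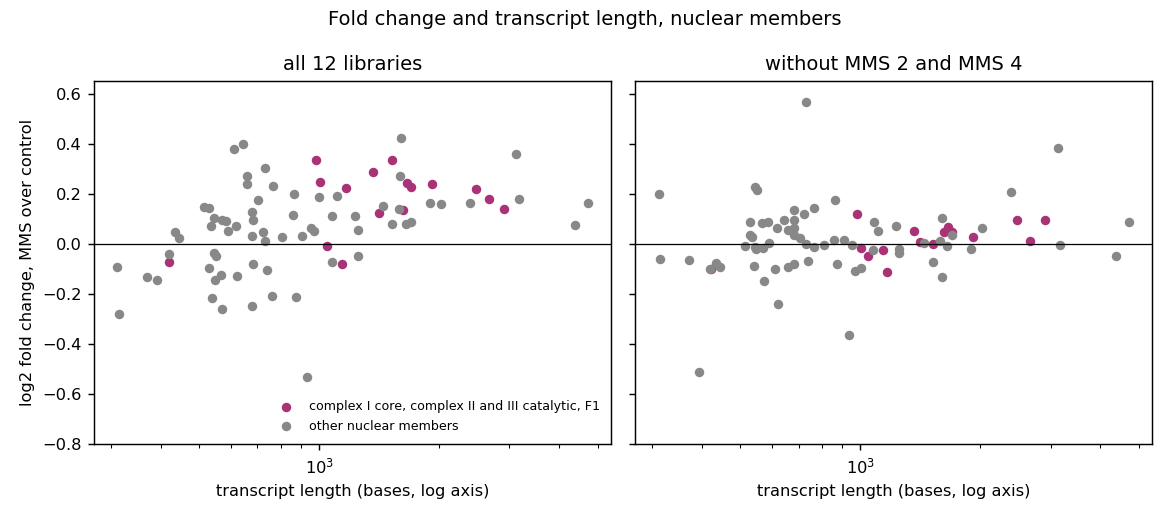
Log2 fold change, MMS over control, against transcript length in bases on a log axis for the 84 nuclear members, with all 12 libraries (left) and without MMS 2 and MMS 4 (right). Purple points are core subunits of complex I, catalytic subunits of complexes II and III and F1 subunits, and grey points are the other nuclear members; the points rise with length on the left (rho 0.51) and less on the right (rho 0.19).

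Library by library, the 28 longest transcripts had a median of 0.41 log2 units above the control mean in MMS 2 and 0.38 in MMS 4, and between -0.06 and 0.04 in the other 10 libraries. The 28 shortest had 0.09 in MMS 2 and 0.04 in MMS 4, within their range of -0.09 to 0.11 over the other libraries. The 7 nuclear members that were jointly lowest in MMS 2 and MMS 4, Ndufa2, Ndufa5, Ndufa7, Ndufb3, Ndufs6, Cox8a and Atp5l2-ps, had transcripts of 312 to 875 bases. They were 8.33% of the nuclear members, against 15.1% jointly lowest among all genes. Whether RNA quality or tissue content of these libraries had a part in this was not tested.

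**Figure D5:**
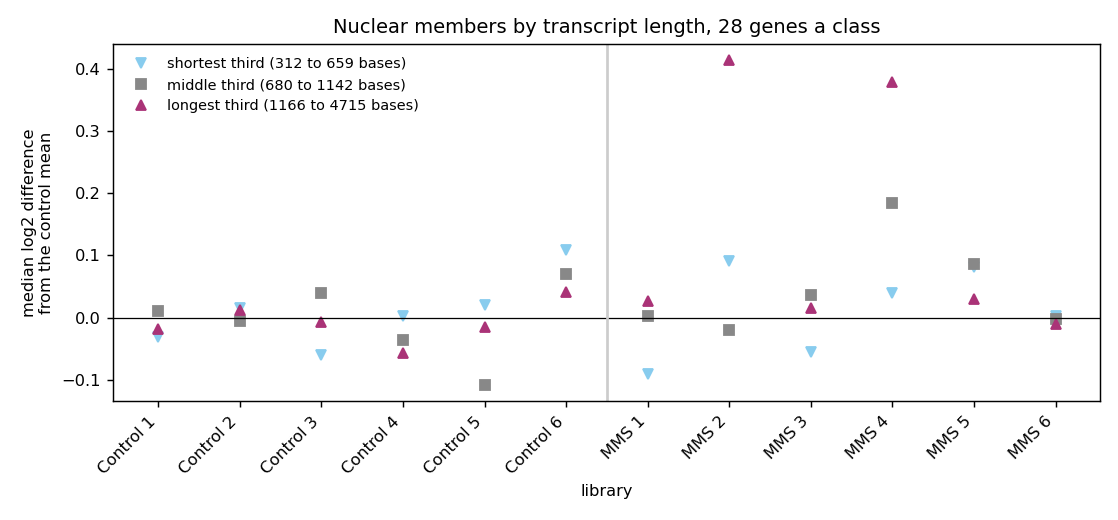
Median log2 difference from the control mean in each library for the nuclear members in classes of 28 by transcript length (shortest, middle and longest). The longest class is at 0.41 in MMS 2 and 0.38 in MMS 4 and close to zero in the other 10 libraries.

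Genes around the respiratory chain were taken from lists not chosen for how they moved here, though earlier results of these data were known. None of the lists held a gene past the threshold, and counts at an unadjusted p under 0.05 are given against 4.68% higher and 4.4% lower of all genes. Of 41 assembly factors tested, 1 was higher and 0 lower, with a median log2 fold change of 0.02. The former was Atpaf1, a chaperone for the F1 head, at 8.24 ± 1.22 CPM in controls and 12.6 ± 2.53 CPM in the MMS group (SD, n = 6 each), which gave 0.62 (SE 0.19, adjusted p = 0.518) and 0.61 without MMS 2 and MMS 4. All 6 MMS libraries lay between 9.98 and 15.2 CPM, and the controls between 6.71 and 9.69 CPM, so the groups did not overlap for this gene. The same held for 0.13% of all genes towards higher levels in MMS, and Atpaf1 was named for its small p. Of 23 genes for mitochondrial transcription and mRNA handling 0 were higher or lower (median -0.008), and of 14 citric acid cycle enzymes likewise 0 (median 0.13). Of 18 transcriptional regulators 2 were higher (median 0.04), led by Ppargc1a, the coactivator of respiratory genes known as PGC-1alpha. It was at 69.6 and 74.0 CPM in MMS 2 and MMS 4 and at 36.1 to 50.9 CPM elsewhere (0.40, SE 0.16, adjusted p = 0.543, and 0.11 without them). The 4 subunits whose symbols fall outside the pattern had a median of -0.01, with 0 higher or lower at that p.

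Of 21 outer membrane and import proteins 6 were higher and 0 lower (median 0.15), and without MMS 2 and MMS 4 0 were. Timm8b had the smallest p, at 0.37 (SE 0.14, adjusted p = 0.543), or 0.16 without them. Of 76 mitochondrial ribosomal proteins 3 were higher and 2 lower (median 0.02), and of 76 cytosolic ribosomal proteins 3 were higher and 1 lower (median -0.02). Of 16 glycolytic enzymes 3 were higher and 0 lower (median 0.17). With those libraries left out 5 of 17 were higher, against 2.41% of all genes, and the median was 0.14. Aldoc, an aldolase known from astrocytes, had the smallest p of these, with 511 ± 50.2 CPM in controls and 640.1 ± 28.7 CPM in the MMS group (SD, n = 6 each), which gave 0.33 on the log2 scale (SE 0.09, adjusted p = 0.471) and 0.31 without MMS 2 and MMS 4 (adjusted p = 0.572). Every MMS library was above every control for this gene, as for 0.13% of all genes, and Aldoc was named for its small p. Gapdh and Pgk1, which have many pseudogene copies, were at only 28.8 and 2.36 CPM against 633 CPM for Aldoa, and how reads with several matches were counted is not given in the sources used here.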

How the data were processed

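Hypothalamic RNA from 12 male pups (6 control, 6 MMS, grouped by sample title) was made into 3' mRNA libraries and sequenced on an Ion Proton instrument. The authors aligned reads to mm10 and deposited raw counts per gene, 1 column per library, neither normalised nor pooled. The counting tool, annotation and use of strand were not given in the sources used here. In 27 rows the symbol had become a date, and these rows were kept unnamed. Columns of other samples numbered 0. Over 30 pairs of libraries within groups, chi-square per degree of freedom was 4.04 to 31.5, so every library was counted once.

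All genes were tested with edgeR 4.0.16 (quasi-likelihood, robust, TMM scaling, default filter with a minimum count of 10 and total of 15) in R 4.3.3, two-sided, with Benjamini-Hochberg adjustment over 13104 genes. The fit was tested on simulated data. Transcript lengths and coordinates (mm10, 1-based) came from GENCODE M21. DESeq2 1.42.0, limma 3.58.1 (voom), other scalings and filters, a replicate block and the omission of libraries were tried as alternatives. Samples with the same replicate number were not treated as pairs. Correlations of same-numbered deviations ran from -0.05 to 0.12, which cannot tell whether such samples shared a litter.

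The members and lists were chosen with earlier results of these data known. Genes named were all mt- members, the most abundant nuclear member of each complex, the 5 nuclear members with the smallest p in each direction, the isoform sets, the Sdh genes, the rows at the 100 count limit and, of each further list, the gene with the smallest p in each direction. Any further gene was picked with its values in view. The lists held assembly factors, other subunits, mitochondrial transcription, regulators, the citric acid cycle, glycolysis, outer membrane and import, both ribosomes, and markers of neurons, hypothalamus, astrocytes, oligodendrocytes, ependyma, choroid plexus, red blood cells, striated muscle, brown fat and pituitary. A marker gene that the naming rule would give is not reported here.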

Additional observations from a re-analysis of the deposited data

Results flagged for a closer look

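For the members named and for sums over members, the 6 values of a group were examined for a library far from the rest, by the gap to the nearest library as a share of the group's range (Dixon's criterion at 95%). Of 116 sets of 6 values 2 were marked, where about 5.8 (1 in 20) would be by chance. Both were mt- mRNAs in MMS 3: mt-Nd1 was at 5690 CPM, with the next MMS library at 3716 CPM, and mt-Co2 was at 808 CPM, with the next at 593 CPM. The same library had the highest share of mt- mRNAs, 3.88% of its counts. The criterion cannot mark 2 libraries that lie far out together, as for Cox5a with MMS 4 at 545 and MMS 2 at 496 CPM. The sets also share libraries and are not independent, so the low number of marks does not show the libraries to be alike.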

How the results depend on the processing

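Under every alternative, including DESeq2, limma-voom and the omission of each library, 0 members passed the adjusted threshold. The count of nuclear members higher at an unadjusted p under 0.05, 7 with all libraries, was 11 with library totals taken without mt- genes, 11 without a count filter and 3 without MMS 2 and MMS 4, and ran from 4 to 15 over the omission of single libraries (lowest without MMS 2, highest without MMS 5). The count of nuclear members lower ran from 0 to 3 over those omissions (lowest without MMS 2, highest without MMS 6). The count of mt- members higher, 2 with all libraries, was 4 without a count filter and 1 without MMS 2 and MMS 4, and ran from 0 (without Control 1 or MMS 3) to 6 (without MMS 5). The nuclear median log2 fold change became 0.0054 without MMS 2 and MMS 4, and ran from 0.073 (without MMS 4) to 0.12 (without MMS 1) over single omissions. The mt- median ran from 0.11 (without MMS 3) to 0.23 (without Control 2). Without MMS 2 and MMS 4 the sign turned for 26 nuclear and 2 mt- members, among them, of those named by the rule, Cox6a1 (-0.018), Cox8a (0.22), Ndufa4 (-0.099), Sdhc (-0.0036), mt-Nd4l (0.15) and mt-Nd6 (0.087), and with limma-voom for mt-Nd4 (-0.00061). Over the omission of single libraries the range crossed zero for Cox6a2 (-0.15 to 0.20), Cox6b2 (-0.041 to 0.19), Cox8a (-0.16 to 0.068), mt-Co2 (-0.059 to 0.11), mt-Nd4 (-0.070 to 0.069) and mt-Nd4l (-0.17 to 0.071). The cause was not tested. Another 969 values kept their direction and their side of the threshold.

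The replicate number as a block gave 6 nuclear and 2 mt- members higher and 1 nuclear member lower, a nuclear median of 0.078 and a mt- median of 0.15. The labels tie equal numbers to no shared litter or day, and not every sample correlated best with its own number. Whether samples of equal number shared a litter is thus not known. Depth limits Ndufa4l2, Atp5l-ps2 and mt-Atp8, which have few counts in each library.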

Other observations

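Other genes of the lists around the respiratory chain, named because they had the smallest p of their list in a direction, are given as values with edgeR's adjusted p, followed by the value without MMS 2 and MMS 4. Among assembly factors Cox17, a copper chaperone of complex IV, was at -0.28 on the log2 scale (SE 0.15, adjusted p = 0.573, then -0.11). Among genes for mitochondrial transcripts Fastkd3 was at 0.39 (SE 0.24, adjusted p = 0.609, then 0.22) and Fastkd2, which binds mitochondrial RNA, at -0.43 (SE 0.21, adjusted p = 0.552, then -0.64). Among regulators Creb1 was at -0.13 (SE 0.13, adjusted p = 0.755, then 0.05). Of the citric acid cycle Cs, citrate synthase, was at 0.20 (SE 0.11, adjusted p = 0.564, then 0.099) and Idh2 at -0.33 (SE 0.21, adjusted p = 0.612, then -0.07). Of glycolysis Hk2 was at -0.28 (SE 0.21, adjusted p = 0.672, then -0.11), and of the import proteins Timm13 at -0.15 (SE 0.10, adjusted p = 0.641, then -0.06).

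Of the mitochondrial ribosome Mrps26 was at 0.25 (SE 0.11, adjusted p = 0.543, then 0.20) and Mrps12 at -0.41 (SE 0.16, adjusted p = 0.543, then -0.18). Of the cytosolic ribosome Rpl15 was at 0.34 (SE 0.11, adjusted p = 0.543, then 0.24) and Rps25 at -0.29 (SE 0.12, adjusted p = 0.543, then -0.24). Of the subunits outside the symbol pattern 2010107E04Rik was at 0.26 (SE 0.13, adjusted p = 0.556) and Ndufab1 at -0.11 (SE 0.16, adjusted p = 0.837, then -0.05). 2010107E04Rik was at 412 and 419 CPM in MMS 2 and MMS 4 and at 239.9 to 291 CPM elsewhere, and its fold change without them was 0.01.

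The marker lists held 0 genes past the threshold. At an unadjusted p under 0.05 the counts were 1 lower of 5 neuron markers (Tubb3), 0 of 9 hypothalamic, 0 of 5 astrocyte, 2 higher of 4 oligodendrocyte, 1 lower of 4 ependymal, 1 lower of 3 choroid plexus, 1 lower of 5 red blood cell, 0 of 3 striated muscle and 0 of 1 brown fat markers, and 0 of 4 pituitary markers could be tested. The following markers with the smallest p of their list in a direction had these log2 fold changes, each followed by the value without MMS 2 and MMS 4. They were Tubb3 (-0.49, then -0.20) and Snap25 (0.13, then 0.03) of neurons, Otp (0.29, then 0.44) and Nkx2-1 (-0.24, then -0.37) of the hypothalamus, Slc1a3 (0.20, then -0.005) and Gfap (-0.22, then 0.11) of astrocytes and, of the oligodendrocyte markers with a lower mean, Mbp (-0.01, then -0.01). The lower ones of the lists without a higher member were Hydin (-1.23, then -0.79) of ependyma, Hbb-bt (-0.51, then -0.38) of red blood cells, Actn2 (-0.41, then -0.30) of striated muscle and Cidea (-0.21, then -0.12) of brown fat, and Ttr of choroid plexus, which was at 1735 CPM in Control 3 and at 35.5 CPM or less in every other library.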
